A study of Mus musculus with 6 samples.

Results

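TH2B is a histone H2B variant of the testis, and its islands in round spermatids, the haploid cells that follow meiosis, are described here along chromosomes 1 to 19. An island is a broad stretch in which a caller joined neighbouring windows that held more ChIP reads than a background model allows. The members were all islands on these 19 autosomes in the round spermatid list, 16447 of the 17340 islands of that list and of the 46507 islands in the 3 lists of the series. The other 893 islands of the list lie on X and Y and are not described.

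The series holds 6 libraries, and 2 of them bear on this list. Both came from round spermatids of adult Th2b+/tag mice, in which 1 copy of the gene gives TH2B with His, Flag and Ha tags at its C terminus and the other copy stays untagged. The ChIP library was made with an anti-HA antibody, directed at the tag. The other library is the input of round spermatids, chromatin taken without an antibody. It was taken to be the control of the list, which does not name its control. Cells were separated on a BSA gradient, and the number of animals is not stated in the labels. The protocol speaks of a pooled fraction of spermatocytes and round spermatids. It was read as pooling within each cell type, and if the types had been mixed the list would not be one of round spermatids alone. No replicate ChIP library and no HA ChIP of untagged cells was analysed here, so the values below have no replicate error, no p-value was computed, and a fold over input is not shown to be specific to the tag. An island list holds no expression values, so the labelled cell type could not be checked against marker genes.

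As background, nucleosomes carry H2B as a pair with H2A, and in male germ cells much of the somatic H2B is exchanged for TH2B from meiosis onward. Round spermatids still package their DNA in nucleosomes. Later in spermiogenesis nearly all histones are removed, and transition proteins and then protamines take their place. A histone that sits in most nucleosomes gives a broad and shallow ChIP signal, unlike the sharp peaks of a transcription factor.

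The islands were broad and their enrichment was small. The median island was 3400 bp long and held 116 ChIP reads beside 83 input reads. Per kb of island this was 35.3 ChIP reads (95% interval of the median 35.3 to 35.4) and 25 input reads. The fold, which is ChIP reads over input reads divided by 0.9435, the list's scaling of the 2 libraries, had a median of 1.47 (interval 1.46 to 1.47). Its 5th percentile was 1.26 and its 95th was 2.08. Together the islands covered 59.999 Mb, or 2.43% of the 2472 Mb of the autosomes, and held 2510450 ChIP reads and 1889588 input reads. Intervals of reads are 95% intervals that cover counting error only. Intervals of medians are order-statistic intervals over islands, which share their 2 libraries. Reads without molecular identifiers are not independent molecules.

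**Figure D1:**
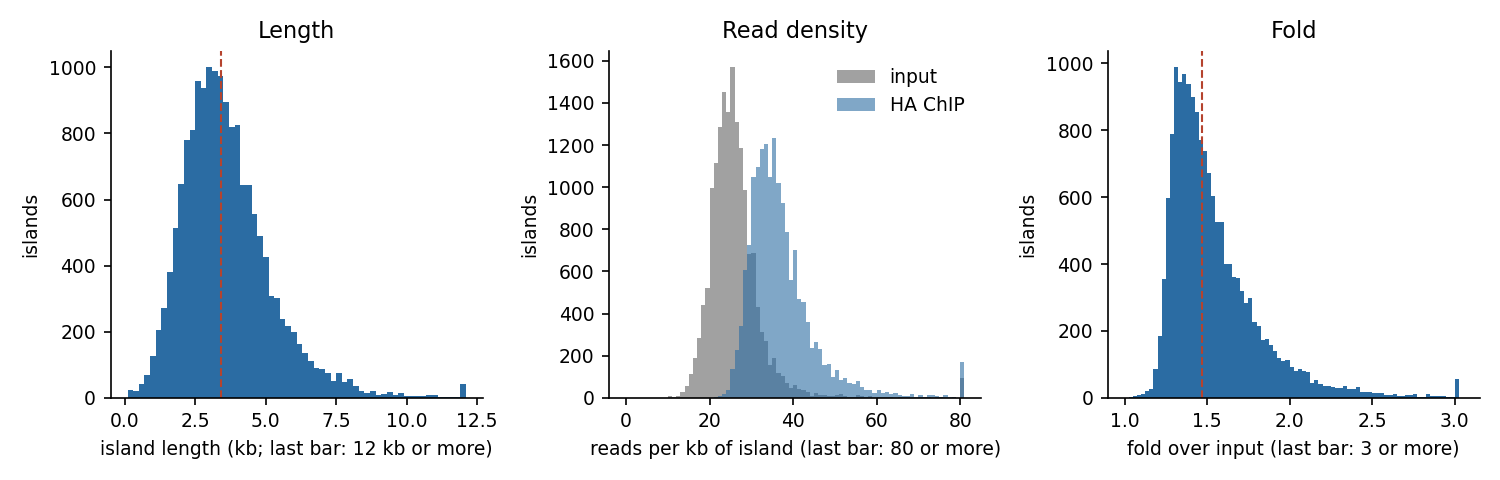
Histograms of the 16447 autosomal islands by length in kb, by reads per kb of island in the HA ChIP (blue) and input (grey) libraries, and by fold over input, with dashed lines at the medians of 3400 bp and 1.47. The ChIP and input densities overlap in part, and few islands reach a fold of 2.

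Folds of 1.5 or more were found in 7259 islands (44.1%, exact binomial interval 43.4 to 44.9) and of 2 or more in 1085 (6.60%, 6.22 to 6.99). Only 57 islands reached 3 and 12 reached 4. The highest fold of all was 8.01, in an island with few input reads. Most islands therefore held less than 1.5 times the reads that the scaled input gave. The uncertainty of a single island was of a similar size to its enrichment. In the median island the upper bound of the counting interval was 1.80 times the lower one. When the errors of both libraries were counted, the interval of 2372 islands (14.4%) reached down to 1 or below, and these had a median fold of 1.30. The interval lay wholly above 1 in 14075 islands and wholly at or above 2 in 35.

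Lengths were spread around a single mode. Lengths went in steps of 200 bp, the caller's window, and 23 islands were a single window. Of all islands, 14792 (89.9%) were at least 2 kb long, 2831 (17.2%) at least 5 kb and 90 (0.547%) at least 10 kb. The 90 longest had a median fold of 1.201, and the highest of them was 1.52. At the other end, 157 islands were shorter than 1 kb, with a median fold of 1.80. These short islands lay on stretches where reads of both kinds were dense, with a median input of 51.7 reads per kb.

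The limit of the caller's last step, a test against input, was recovered from the deposited columns, because no island in the list can have a fold below it. The earlier choice of windows rich in ChIP reads sets a limit of its own, which was not recovered. ChIP density in the list was at least 21.3 reads per kb, with a 1st percentile of 25.8. The lowest passing fold given below is that of the last step alone. The deposited p-value was the Poisson chance of more ChIP reads than the island held, given its input reads times the scaling constant. It was recovered to within 4.5e-11 on the log10 scale in all 17338 islands with a p above 0. The deposited false discovery rate (FDR) was that p-value ranked among 31660 candidate islands in every one of these islands. The list of 17340 islands on all chromosomes was therefore 54.8% of the candidates, those with an FDR below 0.01, and the other candidates were not analysed here. The Poisson test takes the input count as known without error, which the interval above does not.

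At the largest p-value in the list, an island with 20 input reads needed a fold of 1.64 to be listed. One with 50 needed 1.40, one with 100 needed 1.27 and one with 1000 needed 1.08. The median of this lowest passing fold over the islands was 1.30, and the median island stood at 1.13 times its own. Many islands lay close to the limit, and the 5th percentile of that ratio was 1.01. Low folds were thus cut off at a height that depends on depth, and island folds in this list are not a sample of all TH2B folds.

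**Figure D2:**
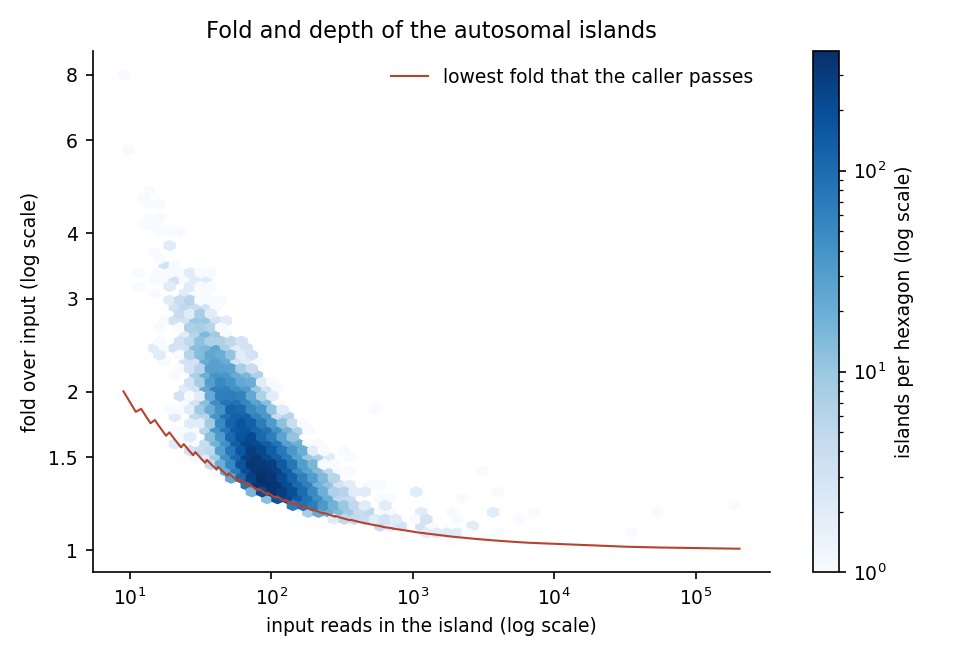
Fold over input against input reads for the 16447 islands, both on log scales, with darker hexagons holding more islands and the red line giving the lowest fold that passes at that number of input reads. The cloud rests on the line, which falls from 1.64 at 20 input reads to 1.08 at 1000.

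Over all islands, longer islands had lower folds, but not among islands of similar input reads. The islands were ranked and cut into 5 classes of equal size (quintiles). In the shortest quintile of the islands, of 200 to 2400 bp, the median fold was 1.66 (1.65 to 1.68), and in the longest quintile, of 4800 to 74600 bp, it was 1.35 (1.34 to 1.35). The quintiles between had medians of 1.53, 1.47 and 1.42, so each step was downward, and the intervals of neighbouring medians did not overlap. Across all 16447 islands the Spearman correlation of fold and length was -0.49. Within single chromosomes it ran from -0.54 to -0.41, so all 19 had the same direction. The islands share 2 libraries and a caller's limit that itself moves with length, and this correlation is a description with no test.

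The limit moved the same way. Its median was 1.39 in the shortest quintile and 1.23 in the longest. Divided by the lowest passing fold of the same island, the median fold went from 1.198 to 1.10, and the correlation with length was -0.22. Reads per kb also differed with length. The median ChIP density was 44.5 reads per kb for the shortest quintile and 31.6 for the longest, while input density had 28.6 and 24.4. The islands with a fold of 2 or more numbered 650 in the shortest quintile (19.8%, 18.4 to 21.2) and 16 in the longest (0.486%, 0.278 to 0.789). The classes between had 230, 125 and 64.

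Fold fell with input density as well, and here the lowest passing fold of the caller's last step hardly moved. A least ChIP density, set by the earlier choice of windows, would ask for a higher fold where input is sparse. Its part in the fall was not tested. From the quintile of fewest input reads per kb to that of most, the median fold was 1.72 (1.71 to 1.74), 1.51, 1.43, 1.39 and 1.38 (1.38 to 1.39). The lowest passing fold had medians of 1.32 and 1.30 in the first and last of these. Finer classes, 10 of equal size (deciles), showed where the fall ended. In the first decile, with 7.50 to 19.8 input reads per kb, the median fold was 1.84 (1.82 to 1.86). It was 1.62 in the next decile and 1.54 in the one after. In the last 3 deciles it was 1.38, 1.38 and 1.39, so it no longer fell. The median of the lowest passing fold was 1.34 in the first decile, 1.28 in the eighth and 1.31 in the last. The 5th percentile of fold was 1.44 in the first decile and 1.24 in the eighth.

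In proportion, ChIP density rose less than input density over most of this range. From the first to the eighth decile the median input went from 18.3 to 28.3 reads per kb, and the median ChIP from 31.2 to 37.1. In the densest decile they were 35.9 and 48.9. Of the 1085 islands with a fold of at least 2, 572 were in the first decile, which was 34.8% of that decile (32.5 to 37.1), and 17 in the eighth (1.03%, 0.603 to 1.65). The Spearman correlation of fold and input density was -0.47, and within single chromosomes it ran from -0.50 to -0.43. Input reads are the denominator of the fold, and the part of counting error of the input in this correlation was not tested. Nor was the part of the caller's choice of windows rich in ChIP reads.

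**Figure D3:**
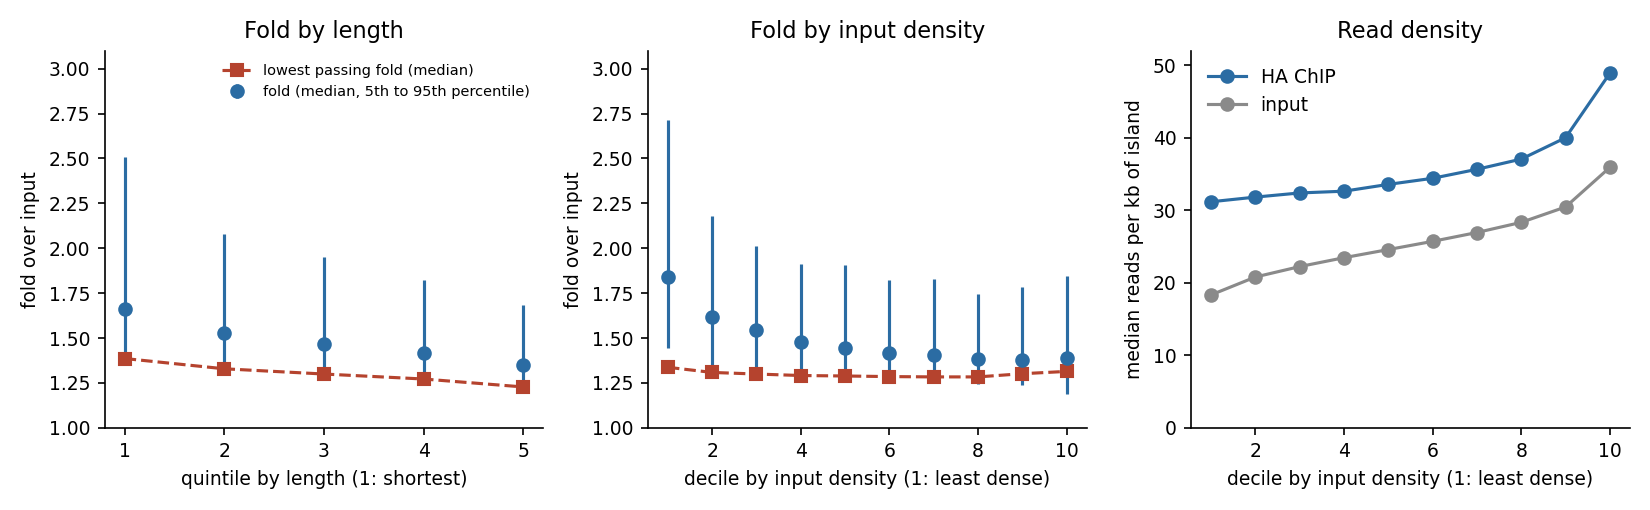
Fold by quintile of length and by decile of input density (points: median, bars: 5th to 95th percentile, red squares: median of the lowest passing fold), and median reads per kb of the ChIP and input libraries by decile of input density. Fold falls from 1.66 to 1.35 with length and from 1.84 to 1.38 up to the eighth decile of input density, while the squares move little with input density.

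Short islands of low input density had the highest folds of all combinations of both measures. Among the 405 islands in both the shortest quintile and the lowest quintile of input density, the median fold was 2.27 and 81.98% reached a fold of 2. In the same quintile of length but the highest quintile of input density, 1513 islands had a median fold of 1.498 and 3.97% reached 2. Among the longest islands the medians at the lowest and highest input density were 1.52 and 1.24. The median lowest passing fold was 1.45 and 1.36 in these classes of the shortest islands, and 1.26 and 1.19 in those of the longest. In all classes of length the median fold fell with each step of input density. In all classes of input density it fell with each step of length. Within deciles of input density the correlation of fold and length ran from -0.79 to -0.68. At a fixed density the number of input reads, and with it the caller's limit, is set by length.

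The direction with length turned inside quintiles by input reads, in all but that of most reads. The islands were cut into quintiles by input reads, and from fewest to most reads the Spearman correlation of fold and length inside them was 0.15, 0.54, 0.46, 0.34 and -0.05. The first and last of these quintiles ran from 9 to 60 and from 117 to 204593 reads, so reads were not level in them. Over all islands fold followed input reads more closely than length, with correlations of -0.73 and -0.49. The median fold was 1.81 (1.80 to 1.83) in the quintile of 9 to 60 input reads and 1.31 (1.31 to 1.32) in that of 117 reads and more, and the median lowest passing fold was 1.39 and 1.22. Input reads are at once the denominator of the fold and what sets the caller's limit, and at a fixed number of them a longer island has a lower input density. A least ChIP density would also ask for more ChIP reads, and so a higher fold, in a longer island at that number. Its part in these correlations was not tested.

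The upper end of the list is described by the 8 islands that had the highest folds among those with 100 ChIP reads or more. Picking by fold favours islands with few input reads, also where the count is low by chance. The intervals of these islands are not adjusted for that choice. Positions are those of mm9, counted from 1. The first, chr13:6328201-6330600, held 127 ChIP reads and 40 input reads, a fold of 3.37 (2.34 to 4.93). It was followed by chr11:3455601-3458200 with 114 and 37 reads and a fold of 3.27 (2.24 to 4.87), and by chr6:33080601-33082600 with 103 and 34 reads and a fold of 3.21 (2.16 to 4.88). These intervals overlap, so the order of the islands is not resolved.

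The fourth, chr14:98485801-98488600, had a fold of 3.12 (2.13 to 4.67). The next, chr2:115765401-115768400, had 3.01 (2.06 to 4.48) and was 1 of 3 islands in a chain with gaps below 10 kb. The sixth, chr10:73283401-73287200, had 3.003 (2.10 to 4.38). All 8 had an input of 10.5 to 17.0 reads per kb, below the list's median of 25. The seventh, chr13:40782001-40784400, had a fold of 2.89 (1.99 to 4.26), and the eighth, chr8:16059601-16064000, had 2.76 (1.95 to 3.97) with the lowest input density of the 8. The ChIP density of this last island, 27.3 reads per kb, was below the median of the list, 35.3.

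The 3 islands closest to the medians of length, ChIP reads and fold stand for the bulk of the list. The island chr10:36474401-36477800 had 116 ChIP reads and 84 input reads over 3400 bp, a fold of 1.46 (1.10 to 1.96). The islands chr11:34877201-34880600 and chr13:20946201-20949600 each had 115 and 83 reads over 3400 bp, a fold of 1.47 (1.10 to 1.97). Their intervals began just above 1.

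A handful of islands held a large share of all reads. The island chr9:2999801-3038600, 38800 bp at the start of the assembled chromosome, held 233148 ChIP reads and 204593 input reads, which was 9.29% of the ChIP reads and 10.8% of the input reads of all autosomal islands on 0.0647% of their length. The island chr2:98501401-98508200 held 63576 and 57165 reads on 6800 bp, and was the densest of the list with 9349 ChIP and 8407 input reads per kb. Which sequences lie in these islands was not analysed here.

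Their folds were low and their counting error was small. The chr9 island had a fold of 1.21 (1.201 to 1.22) and the chr2 island 1.18 (1.17 to 1.19). The island chr9:35112401-35113400 had 6780 input reads per kb and a fold of 1.18 (1.14 to 1.22), chr12:3109001-3110200 had 3446 and 1.29 (1.24 to 1.35), and chr6:103598201-103599800 had 2091 and 1.41 (1.35 to 1.48). These 5 were the islands of highest input density. Leaving out the chr12 island and adding chr11:3025801-3100400 gives the 5 islands with the largest excess of ChIP reads over scaled input reads, which reached 40115 reads in the chr9 island at the start of its chromosome.

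Islands of more than 2 times the median input density, which is 50 reads per kb, numbered 225 (1.37%, 1.196 to 1.56). They held 18.3% of the ChIP reads and 21.7% of the input reads. Their median fold was 1.32 and their median length 1400 bp, beside 1.47 and 3400 bp in the others. Above 100 input reads per kb there were 66 islands with folds from 1.05 to 2.33 and a median of 1.28, and 2 of them reached a fold of 2. The fold of the summed reads was 1.41, below the median fold. Without the 3 islands of most ChIP reads it was 1.45.

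The 5 longest islands had folds from 1.05 to 1.21, and 2 of them were among the 5 of lowest fold. The island chr11:3025801-3100400, of 74600 bp, held 32890 ChIP and 32669 input reads and had a fold of 1.07 (1.05 to 1.08). The next in length were chr3:25413801-25457600 with a fold of 1.07 (1.03 to 1.12), the chr9 island named above, chr13:12921201-12951800 with 1.08 (1.01 to 1.14) and chr5:15112601-15141200 with 1.05 (0.997 to 1.10). The last of these had the lowest fold of the list. The other islands of lowest fold were chr18:7319401-7325200 with 1.06 (1.001 to 1.12), chr7:23992801-24018400 with 1.06 (0.998 to 1.13), the longest island, and chr5:95609201-95627400 with 1.07 (0.998 to 1.15). Each held over 1000 input reads, where the lowest passing fold is at most 1.08, and the intervals of 3 of the 5 reached below 1.

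Neighbouring islands lay at very unequal distances. The 16428 gaps between islands of 1 chromosome had a median of 56.2 kb (54.8 to 57.4), a mean of 143.0 kb and a standard deviation of 326 kb. The standard deviation was 2.28 times the mean. The shortest gap was 800 bp, the least that the caller's joining of gaps up to 600 bp leaves, and 151 gaps had that length. Of all gaps, 2136 (13.0%, 12.5 to 13.5) were under 10 kb and 7625 (46.4%, 45.6 to 47.2) under 50 kb. The 95th percentile of the gaps was 548 kb.

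From 2 kb to 20 kb the number of gaps declined slowly with their length, and shorter gaps were more frequent. There were 509 gaps under 2 kb, then 424 from 2 to 4 kb, 427 from 4 to 6 kb and 392 from 6 to 8 kb. From 18 to 20 kb there were 292. The first step held the most gaps although it starts at 800 bp and so spans fewer possible lengths than the others. Of its gaps, 151 were of 800 bp. No later step stood out.

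Long stretches without an island took a large part of the autosomes. Gaps of at least 1 Mb numbered 312 and summed to 580 Mb, 23.4% of the length of the autosomes, and 82 gaps of at least 2 Mb summed to 271 Mb. The longest free stretch was chr8:120698401-129059200, of 8.36 Mb, followed by chr7:38571401-46917000 of 8.35 Mb. The next were chr4:136043601-143082800 of 7.04 Mb, chr4:127844401-134763600 of 6.92 Mb and chr2:27765801-34075600 of 6.31 Mb. A stretch without an island may still hold TH2B reads, since the list shows only what passed the caller. Gaps in the assembly and stretches where reads cannot be placed were not removed.

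Most islands stood alone at the scale of 10 kb. Islands were put into 1 chain where the gap between neighbours was under 10 kb. This left 12494 islands (76.0%) alone and put 3953 (24.03%) into 1817 chains, of which 1546 were pairs, 232 held 3 islands, 31 held 4, 7 held 5 and 1 held 6. Islands in chains had a median fold of 1.46 (1.45 to 1.47), close to the 1.47 (1.47 to 1.48) of those alone. Their median length was 3400 bp in both cases, and the median input was 25.4 and 25 reads per kb.

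The chain of 6 was chr9:7632801-7696800. Its islands covered 41.2% of 64 kb, with folds from 1.249 to 1.84 and 1.43 for the summed reads. Of the chains of 5, those that covered most were chr5:52189601-52233800, with folds from 1.31 to 1.58, and chr1:161803401-161844600, with folds from 1.21 to 2.04. The counting intervals of the lowest and highest island overlapped in the chr9 and chr5 chains. In the chr1 chain they did not, at 0.983 to 1.48 and 1.503 to 2.79.

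In the chr9 chain the third island, chr9:7654401-7658000, had the highest fold with 113 ChIP and 65 input reads, and the first, chr9:7632801-7637600, the lowest with 145 and 123. In the chr5 chain the highest was chr5:52206801-52210400 with 142 and 95 reads. In the chr1 chain it was chr1:161831001-161834800 with 127 and 66. ChIP density was nearly level along 2 of the chains, from 29.5 to 32.7 reads per kb on chr9 and from 31.1 to 34.2 on chr1, while input density went from 18.1 to 25.6 and from 17.4 to 30. On chr5 both varied, ChIP density from 28.8 to 40.8 and input density from 22.6 to 33.1.

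Neighbours were hardly alike in fold. For the 509 pairs of neighbours with a gap under 2 kb the Spearman correlation of their folds was 0.05 and that of their input densities 0.16. For the 5442 pairs at 100 kb or more the values were 0.03 and 0.03. The ChIP densities of neighbours correlated at 0.13 under 2 kb, 0.12 from 2 to 5 kb and 0.04 at 100 kb or more. The fold of a single island has a counting error of a similar size to its enrichment, and the part of this error in these low values was not tested. The correlation of neighbours' lengths was between -0.01 and 0.04 at all distances. Pairs share islands with the next pair, and no test was made.

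At a scale of megabases the islands were unevenly spread. The autosomes were cut into 2425 bins of 1 Mb from 3 Mb on, the position near which the first islands begin. A bin held 6.78 islands on average with a median of 6, and the variance of the counts was 4.26 times their mean, where counts scattered at one even rate would give 1. No island had its middle in 262 bins (10.8%, 9.60 to 12.1). At the other end 224 bins (9.24%) held at least 15 islands each and 24.1% of all islands, and 54 of these bins lay on chromosome 1. The fullest 568 bins, 23.4% of them, held 50% of the islands.

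The ratio of variance to mean was above 1 on each of the 19 autosomes, from 2.78 on chromosome 3 to 6.46 on chromosome 11. It grew with the width of the bin, from 3.06 at 0.5 Mb to 9.04 at 5 Mb. After each chromosome's mean was taken off, the counts of adjacent bins correlated with a Pearson r of 0.35 over 2406 pairs. At 2 Mb r was 0.15, at 5 Mb 0.05 and at 10 Mb 0.03. Bins share 2 libraries and their chromosome, and these correlations are given without a test.

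**Figure D4:**
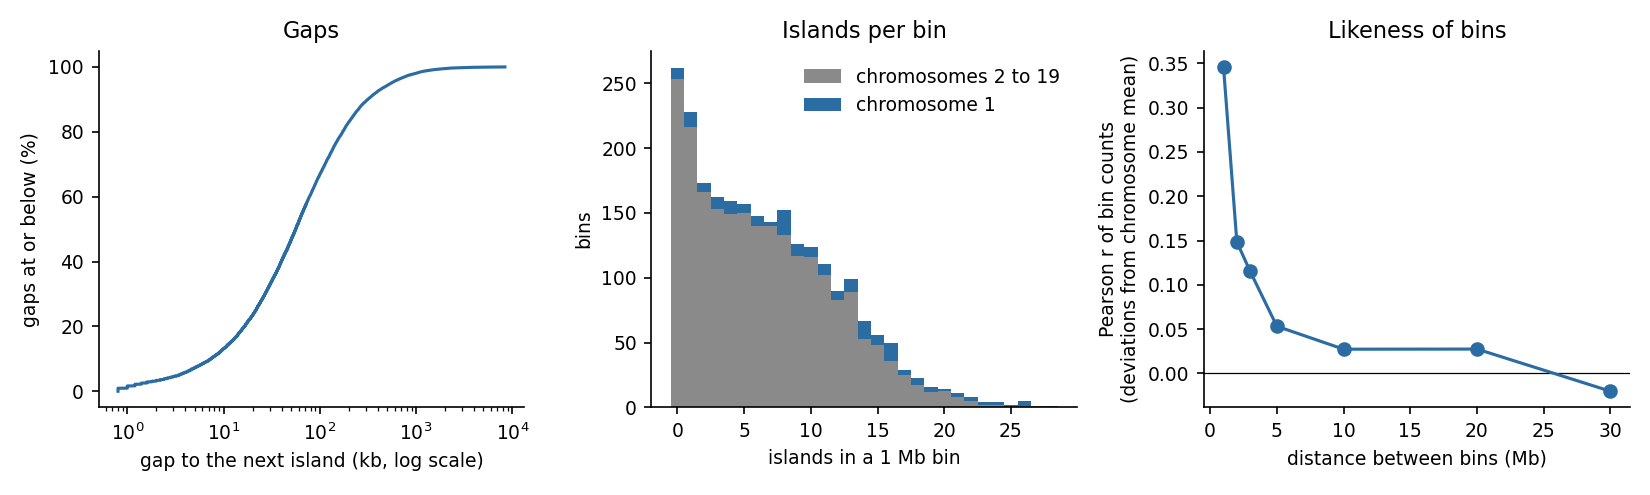
Cumulative share of the 16428 gaps by length on a log scale, number of islands in each of the 2425 bins of 1 Mb with chromosome 1 in blue, and correlation of bin counts by the distance between bins. Gaps have a median of 56.2 kb, 262 bins are empty, and the correlation falls from 0.35 at 1 Mb to 0.05 at 5 Mb.

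The fullest bin was that of chromosome 1 from 76 Mb, chr1:76000001-77000000, with 28 islands that covered 123.2 kb. It was followed by chr11:111000001-112000000 with 27 islands, although chromosome 11 had the lowest density of all autosomes. The next 5 bins held 26 islands, and 4 of them lay on chromosome 1, at chr1:101000001-102000000, chr1:125000001-126000000, chr1:126000001-127000000 and chr1:131000001-132000000. The last was chr17:52000001-53000000. In these 7 bins islands covered 8.66% to 12.3% of the bin, and the median folds were between 1.35 and 1.496, beside 1.47 in the list.

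Crowding and fold were weakly related over the whole list. Islands in bins with 1 to 3 islands had a median fold of 1.48 (1.46 to 1.49), those in bins with 4 to 7 had a median fold of 1.48 (1.47 to 1.49), and those in bins with 16 or more had 1.45 (1.44 to 1.46). The shares with a fold of 2 or more were 6.70% (5.27 to 8.37), 7.34% (6.48 to 8.28) and 5.16% (4.41 to 5.99). The interval of the fullest class overlapped that of the sparsest but lay below that of bins with 4 to 7 islands. It also lay below that of bins with 8 to 11, at 7.25% (6.54 to 8.02). Bins with 12 to 15 had 6.30% (5.58 to 7.08), which overlapped it. The median input density was 24.6, 24.7 and 25.6 reads per kb.

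Islands of high input density were the most unevenly spread of the classes compared. To compare classes of equal size, the islands were cut into quintiles by each measure and the variance to mean ratio of their counts per 1 Mb bin was taken. It was 1.57 in the quintile of lowest input density and 2.22 in the highest. By fold it was 1.95 in the lowest quintile and 1.60 in the highest. By length it lay between 1.62 and 1.66 in the first 4 quintiles and was 1.86 in the longest. Within the quintile of lowest fold 3.85% of gaps were under 10 kb, beside 2.08% to 2.60% in the other quintiles by fold.

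Chromosome 1 carried more islands than any other autosome. It had 10.3 islands per Mb (exact Poisson interval 9.90 to 10.8), and the other 18 had 5.02 (4.63 to 5.44, chromosome 11) to 8.16 (7.59 to 8.77, chromosome 18), with a median of 6.27. Its 2040 islands were 12.4% of the list on 7.98% of the autosomal length. The islands of chromosome 1 had the list's median length of 3400 bp, as on all others but chromosome 17 with 3200 bp. They had the lowest median fold, 1.43 (1.42 to 1.44), beside 1.44 to 1.496 on the others, and the highest median input density, 26.2 reads per kb. The interval of this fold overlapped those of chromosomes 7, 11, 18 and 19. The islands per Mb of the other chromosomes were spread wider than their intervals. A Poisson interval takes islands as scattered at one even rate, and clustering makes it too narrow. The variance of counts per 1 Mb bin was 4.37 times the mean on chromosome 1 and 6.46 times on chromosome 11. Median folds of the other chromosomes differed little, and some of their intervals did not overlap. The interval of chromosome 3, 1.484 to 1.508, lay above that of chromosome 18, 1.440 to 1.473. That of chromosome 9, 1.457 to 1.507, overlapped both.

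The surplus of chromosome 1 was largest among islands of dense input. In the quintile of highest input density, at 29.25 reads per kb and more, chromosome 1 had 3.17 islands per Mb, beside 0.862 to 1.66 on the others, and held 19.03% (17.7 to 20.4) of the class. In the quintile of lowest input density it had 1.48 islands per Mb, and 6 of the other chromosomes had more. Without the densest quintile it still had 7.17 islands per Mb, above all 18 others, which reached 6.71 on chromosome 3. The part of input density in the number of islands on chromosome 1 was not tested.

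**Figure D5:**
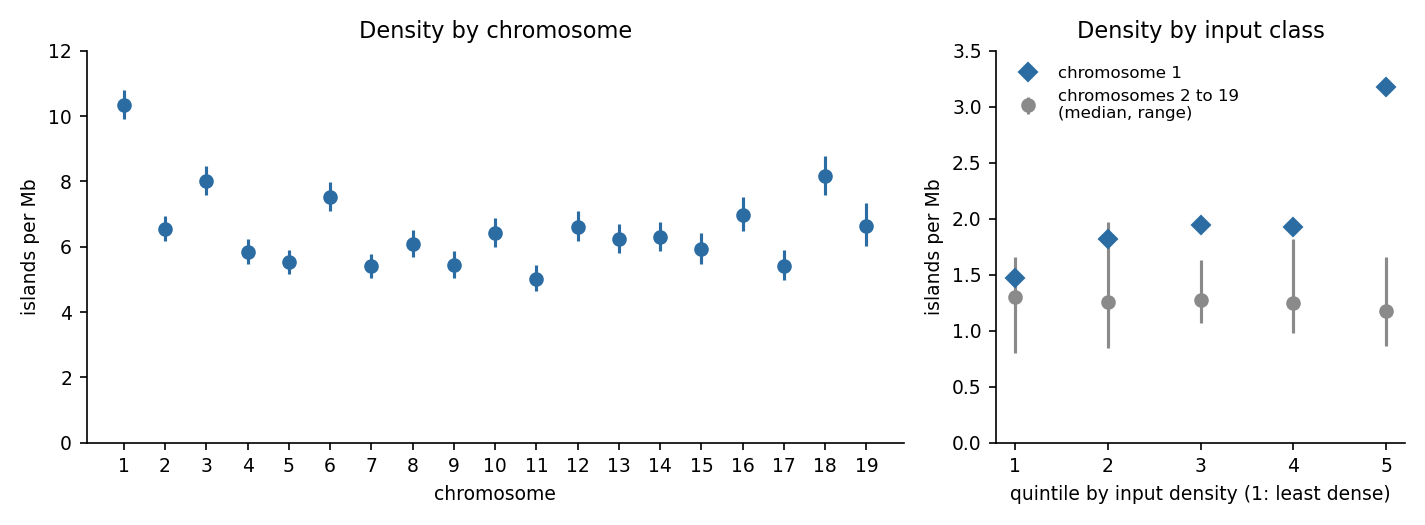
Islands per Mb on each autosome with exact Poisson 95% intervals, and islands per Mb on chromosome 1 beside the median and range of chromosomes 2 to 19 in each quintile of input density. The intervals do not allow for the clustering of islands. Chromosome 1 stands at 10.3 per Mb above all others, and its distance from them is greatest in the densest quintile, 3.17 against at most 1.66.

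The surplus was not even along chromosome 1. From 100.1 to 119.5 Mb, the sixth of 10 equal segments of the chromosome after its first 3 Mb, there were 335 islands or 17.3 per Mb, and in the segment before it, from 80.7 to 100.1 Mb, 112 islands or 5.77 per Mb. The first segment had 12.9 per Mb with a median fold of 1.38, the lowest of the chromosome's segments. The eighth segment had 12.3 per Mb, and the other segments had 7.83 to 11.2.

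Over all autosomes the density of islands changed modestly from the start of the assembled chromosome to its end. All chromosomes were cut into 10 such segments from 3 Mb to the end, and mouse autosomes have their centromere at the start. The first segment had 8.02 islands per Mb, the ninth 5.80 and the last 5.23. The segments between were at 6.47 to 8.01 without an order. Single chromosomes differed far more than the segments did, from 1.37 to 12.9 islands per Mb in the first segment and from 1.94 to 10.3 in the last.

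Fold along the chromosomes was nearly level. The median was 1.44 (1.43 to 1.46) in the first segment and between 1.46 and 1.49 in all others. In the first segment 5.01% (4.08 to 6.07) of the islands reached a fold of 2, and in the second 7.83% (6.55 to 9.28). Among chromosomes this share ran from 4.59% (3.198 to 6.35) on chromosome 18 to 9.24% (7.31 to 11.5) on chromosome 14. These shares had no plain order with the density of islands. Chromosomes 1 and 18, with the most islands per Mb, had 4.90% (4.01 to 5.93) and 4.59%, but chromosome 3, next at 8.02 per Mb, had 7.27% (5.90 to 8.83), and chromosome 11, with the fewest, had 5.56% (3.88 to 7.68).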

How the data were processed

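HA ChIP and input reads of round spermatids were compared within islands called with SICER on mm9, per the submitters' processing notes. A window of 200 bp and a gap of 600 bp were read from the name of the deposited list. Aligner, versions and read filters: not given in the sources used here. Per island the authors deposited counts of ChIP and control reads as whole numbers, a p-value, an FDR and a fold, which equals the ratio of both counts divided by a constant. Columns had no header and were identified by their values. The 3 blank lines were skipped, and positions, counted from 0 in the list with the last base as the end, were changed to counting from 1. The control was taken to be the round spermatid input, whose title carries an unexplained suffix.

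Fold was computed with the constant rounded to 0.9435, and differed from the deposited fold by at most 2.8e-05 of its value. Folds have exact conditional binomial intervals, medians order-statistic intervals, shares Clopper-Pearson intervals and islands per Mb Poisson intervals, all at 95%. Islands with equal values at a class border were divided at random. Bins count islands by their middle. Lengths of mm9 chromosomes came from GenomeInfoDb 1.38.1 in R 4.3.3. Python 3.11.15, numpy 2.4.6, pandas 2.3.3, scipy 1.17.1 and matplotlib 3.10.9 were used, and the code was tested on simulated data. Library depth outside islands was not used here, and genes and sequences were not analysed here.

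By rule, the text names the 8 islands of highest fold holding 100 ChIP reads or more, the 5 longest, the 5 of highest input density, the 5 of largest excess, the 5 of lowest fold, the 3 nearest the medians, the 3 chains of most islands, the 6 fullest bins and the 5 longest gaps. A tie made the bins 7. Ties between chains were broken by covered length, which was chosen after their values were seen, as were the deciles of input density, the quintiles by input reads, the crossing of length with input density, the classes by crowding, the spread of equal classes and the breakdown of chromosome 1. The members and lists were chosen with earlier results of these data known.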

Additional observations from a re-analysis of the deposited data

How the results depend on the processing

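Of 57 alternatives, 34 moved a value beyond its range and 23 did not. None changed the sign of a value, but only the correlations could change sign. The quintiles by input reads, inside which the correlation of fold and length was mostly positive, were not among the alternatives. The range was the value's interval, for the number of islands 1.5 times either way, and for correlations and the variance to mean ratio the range over leaving out each chromosome. Leaving out chromosome 1 or 11 could therefore not move a correlation or this ratio beyond its range. The 4 alternatives on the lowest passing fold, on leaving out chromosome 11 and on the summed reads without 3 islands were chosen after the data were seen. At an FDR of at most 0.0001 the list had 8080 islands, a median length of 3200 bp, a median fold of 1.65, 13.4% with a fold of at least 2, correlations of fold with length of -0.64 and with input density of -0.39, a median gap of 125.4 kb, 6.72% of gaps under 10 kb and a variance to mean ratio of 2.55. With at least 100 ChIP reads the same quantities from length on were 4000 bp, 1.42, 2.86%, -0.37, -0.58, 77.4 kb, 9.92% and 3.496. Both are subsets, with fewer islands by construction. With gaps of at most 2000 bp joined, the correlation with length was -0.47, the median gap 59.4 kb, gaps under 10 kb 9.99% and the variance to mean ratio 4.04. Without chromosome 1 the median fold was 1.473 and the median gap 58.6 kb. The fold of the summed reads was 1.41, and 1.45 without the 3 islands of most reads. The share with high fold was 44.1% at 1.5, 0.347% at 3 and 0.213% where the interval's lower bound was at least 2. Gaps under 5 kb were 7.05% and under 50 kb 46.4%. The variance to mean ratio was 3.057 in bins of 0.5 Mb and 9.04 in bins of 5 Mb. Divided by the lowest passing fold, fold correlated with length at -0.22 and with input density at -0.53. The cause of these changes was not tested.

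No paired analysis was possible because each group had 1 library. With 1 ChIP and 1 input library, animals and preparations could not be compared. Depth limits single islands to wide intervals, with an upper bound 1.80 times the lower one in the median island.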

Other observations

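The 57 islands that started before 3.2 Mb, at the start of 17 of the assembled autosomes, held 11.6% of the ChIP reads of all autosomal islands. As shares of the same total, chr9:2999801-3038600 held 9.29% and chr11:3025801-3100400 held 1.31%, and the other 55 islands together held 1.04% on 0.341% of the covered length. Over all 57 the median input was 36.8 reads per kb, the median fold 1.34 and the median length 3600 bp, and 1 of them had a fold of 2 or more. The 3.2 Mb limit was chosen after the data were seen.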
